A study of Homo sapiens with 3 samples.

Results

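The alpha and beta tubulin isotypes are the closely related proteins that pair into the building block of microtubules, and 10 of their genes were described across 3 teratomas grown from human embryonic stem cells. They were the alpha isotypes TUBA1A, TUBA1B and TUBA1C and the beta isotypes TUBB, TUBB2A, TUBB2B, TUBB3, TUBB4A, TUBB4B and TUBB6, and all 10 were found among the 27307 gene symbols of the deposited tables. They were chosen by symbol, and each was represented by its transcript entry with the highest mean level. TUBA1A, TUBB2A, TUBB2B, TUBB3 and TUBB4A were taken as the neuronal isotypes, and TUBA1B, TUBA1C, TUBB, TUBB4B and TUBB6 as the ubiquitous ones. The grouping follows general knowledge of where each gene is most abundant and is not sharp, since TUBB2A in particular is also expressed outside the nervous system.

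A teratoma is a tumour in which pluripotent cells give rise to many kinds of tissue at once. The 3 libraries formed 1 group with no comparison group: cells of the established line H1 were injected subcutaneously into immunodeficient SCID-beige mice, and the tumours were frozen after 3 to 4 weeks. Polyadenylated RNA from each was sequenced, and the libraries are called teratomas 1, 2 and 3 by their replicate number. Whether each library is a separate tumour is not stated in the labels, so the spread between them may be technical.

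Alpha and beta tubulin form a heterodimer that polymerises head to tail into the microtubule wall. The isotypes share a highly conserved body, and the beta isotypes differ most in a short acidic tail at the carboxyl end. The tail projects from the microtubule and is where motors, microtubule-associated proteins and modifying enzymes act. Developing neurons depend on microtubules for migration and axon growth and are known for high TUBA1A, TUBB2A, TUBB2B and TUBB3, whereas dividing cells build spindles largely from ubiquitous isotypes.

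The tails of the 7 beta isotypes are shown as the last 60 coding bases of each gene, stop codon included, because this is the stretch in which the beta isotypes differ most. The sequences are from GRCh38 with the GENCODE v29 annotation, whereas the authors' values were made on hg19, so the positions belong to GRCh38 only. Each stretch lies within 1 exon, at the end of the coding sequence. Capitals mark GAA and GAG, the codons of glutamate, which give the tail its charge and are the sites of polyglutamylation.
TUBB, chr6:30724338-30724397, plus strand: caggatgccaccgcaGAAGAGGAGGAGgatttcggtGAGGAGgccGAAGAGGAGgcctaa
TUBB2A, chr6:3153863-3153922, minus strand: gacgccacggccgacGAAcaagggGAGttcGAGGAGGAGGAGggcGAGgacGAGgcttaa
TUBB2B, chr6:3224751-3224810, minus strand: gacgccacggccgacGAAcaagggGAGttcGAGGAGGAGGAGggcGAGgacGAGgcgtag
TUBB3, chr16:89935745-89935804, plus strand: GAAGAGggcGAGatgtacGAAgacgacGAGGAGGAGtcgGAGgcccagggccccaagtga
TUBB4A, chr19:6495164-6495223, minus strand: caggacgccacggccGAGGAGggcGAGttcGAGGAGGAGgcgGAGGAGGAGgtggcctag
TUBB4B, chr9:137243497-137243556, plus strand: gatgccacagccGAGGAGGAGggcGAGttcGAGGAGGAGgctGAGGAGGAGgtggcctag
TUBB6, chr18:12326071-12326130, plus strand: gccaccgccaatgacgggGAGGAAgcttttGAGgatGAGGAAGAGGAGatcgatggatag

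Among the beta genes the number of glutamate codons among the 19 codons before the stop ran from 7 in TUBB6 to 10 in TUBB4B. TUBB2A and TUBB2B differed only within the last 2 codons shown. The tail of TUBB3 is the only one of the 7 beta tails that ended in a lysine codon, AAG, before its stop.

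Over the whole coding sequence, identity among the 3 alpha genes was 95.9% to 97.2%, and TUBA1A and TUBA1B were the closest pair. Among the 7 beta genes it ran from 81.0% to 98.1% with a median of 86.4%, and TUBB2A and TUBB2B were the closest pair. TUBB3 and TUBB, the class III and class I beta tubulins, were 81.7% identical. Within the last 60 bases the median identity between beta genes was 61.9%, against 87.0% over the coding sequence before them. An alpha and a beta gene shared 54.9% to 57.1% of their bases.

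This likeness bears on the counts. Of all 50-base windows of the coding sequence, 72.4% in TUBB2A and 72.4% in TUBB2B occurred letter for letter in another of the 10 genes. The share was 58.4% in TUBA1A, 68.3% in TUBA1B and 57.0% in TUBA1C. It was 11.7% in TUBB3 and in TUBB4A, 7.99% in TUBB4B, 1.55% in TUBB6 and 0% in TUBB. The deposited tables also list what appears to be 8 genome placements for the TUBB entry and 1 for each other member. How reads with several placements were assigned is not given in the sources used here. The split between TUBB2A and TUBB2B and that among TUBA1A, TUBA1B and TUBA1C is therefore uncertain. TUBB3, TUBB4A, TUBB4B and TUBB6 are less exposed to this likeness within their coding sequence. TUBB shared no window with the other genes compared, but how reads at its 8 apparent placements were counted is unknown. The level of TUBB, and comparisons with it, are therefore uncertain too.

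Levels are the authors' RPKM, the reads of an entry scaled to its length in kilobases and to 1000000 reads, which allow genes of different length to be compared. Means are given ± SD over the 3 libraries (n = 3). The RPKM values imply library totals of 43605459 to 46243200 reads. In bulk tissue, fewer cells of a type and less RNA per cell cannot be told apart, so each level is an average over the whole tumour.

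All 5 neuronal isotypes were highest in teratoma 3 and lowest in teratoma 1. TUBA1A, the main alpha isotype of migrating and growing neurons, stood at 1004, 1100.4 and 2696 RPKM in teratomas 1, 2 and 3. Teratomas 1 and 2 were close and teratoma 3 stood apart, at 2.68 times teratoma 1. The mean was 1600.2 ± 950.1 RPKM, the highest of the 10 isotypes and rank 5 among all genes.

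TUBB3, the class III isotype widely used as a marker of young neurons, stood at 435, 509.8 and 1216 RPKM in teratomas 1, 2 and 3, a mean of 720.1 ± 431. Again the first 2 libraries were close and teratoma 3 was 2.80 times teratoma 1. These values rest on 35544, 41320 and 93808 reads, so the counting error was small beside the spread between libraries.

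TUBB2B, a beta isotype required for neuronal migration in the cortex, stood at 414, 530.1 and 1271 RPKM, a mean of 738 ± 465. Its near copy TUBB2A stood at 336, 440.3 and 1062 RPKM, a mean of 613 ± 393. TUBB2B was above TUBB2A in each library, and teratoma 3 was 3.07 and 3.16 times teratoma 1 for TUBB2B and TUBB2A. TUBB4A, a beta isotype of mature brain that is also made by myelinating oligodendrocytes, was far lower, at 35.9, 58.1 and 147 RPKM, a mean of 80.4 ± 58.9. It had the widest spread of the 10 isotypes, with teratoma 3 at 4.10 times teratoma 1. It was also the member whose teratomas 1 and 2 lay farthest apart, by 0.68 in log2(RPKM + 1).

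The ubiquitous isotypes varied less and in both directions. TUBB, the class I beta tubulin of most dividing cells, stood at 849, 766 and 956 RPKM in teratomas 1, 2 and 3, a mean of 857 ± 94.9. Its highest library was 1.25 times its lowest, the smallest spread of the 10 isotypes. TUBA1B, the corresponding alpha tubulin, stood at 772, 715 and 979 RPKM, a mean of 822 ± 139. TUBA1C, another alpha tubulin found in many tissues, stood at 244, 261 and 370.1 RPKM, a mean of 292 ± 68.5. Teratoma 3 was highest for these 3 genes, at 1.37 times the lowest library for TUBA1B and 1.52 times for TUBA1C.

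TUBB4B and TUBB6 ran the other way. TUBB4B, a widely expressed isotype that is prominent in cilia, stood at 285, 247 and 176 RPKM in teratomas 1, 2 and 3, a mean of 236 ± 55.5. Teratoma 1 was highest and teratoma 3 lowest, by a factor of 1.62. TUBB6, the class V beta tubulin, had the lowest mean of the isotypes, though TUBB4A was lower in teratoma 1. It stood at 38.9, 32.4 and 17.5 RPKM, a mean of 29.6 ± 11.0. Teratoma 3 was lowest again, 2.23-fold under teratoma 1. The 1491 reads of TUBB6 in teratoma 3 were the fewest of any member, and their 95% Poisson interval spanned 16.6 to 18.4 RPKM, well short of the other libraries.

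**Figure D1:**
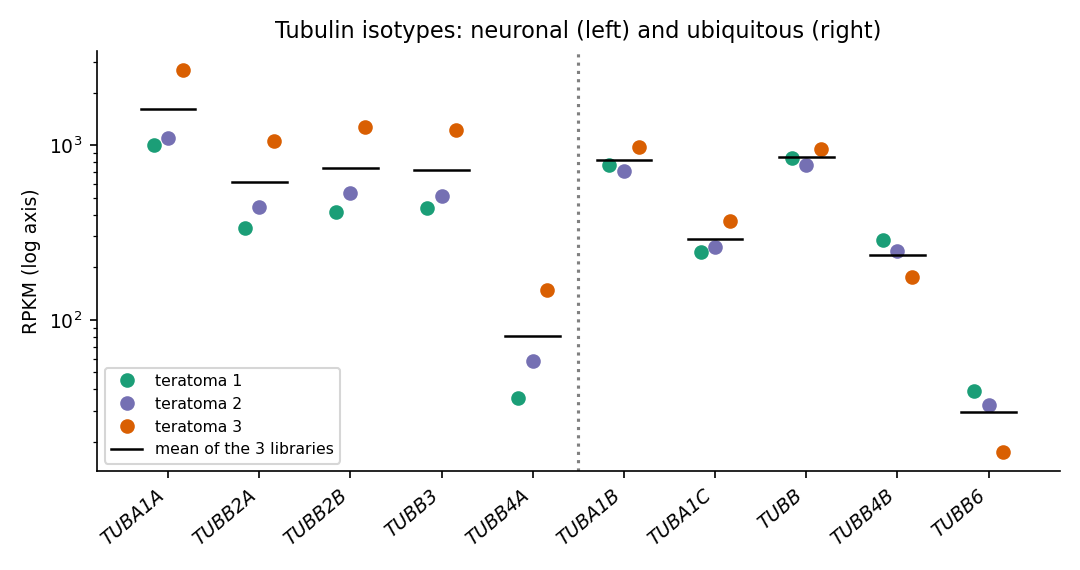
RPKM of the 10 tubulin isotypes on a log axis, with 1 point for each of the 3 teratoma libraries and a bar at their mean; neuronal isotypes are left of the dotted line. Teratoma 3 is the highest point for all 5 neuronal isotypes, and for TUBB4B and TUBB6 it is the lowest.

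Ordered by mean RPKM, the isotypes ran TUBA1A, TUBB, TUBA1B, TUBB2B, TUBB3, TUBB2A, TUBA1C, TUBB4B, TUBB4A and TUBB6. Only 2 of the 9 pairs of neighbours in that order had ranges that did not overlap. TUBA1A was above TUBB in every library, 1004 RPKM or more against 956 or less, and TUBB4B was above TUBB4A, 176 or more against 147 or less. The other 7 pairs overlapped. TUBB3 was above TUBB2A and TUBB2A above TUBA1C in each of the 3 libraries even so, while the remaining neighbours changed places in 1 library. In teratoma 1 TUBB was well above TUBB3, and in teratoma 3 it was below TUBB3, TUBB2B and TUBB2A.

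The spread of a gene was measured as its range, the highest minus the lowest library in log2(RPKM + 1), and a range of at least 1 was counted. This was compared with the 15701 genes averaging at least 1 RPKM. Of these, 20.0% had such a range, and of the 10 isotypes 6 did: all 5 neuronal ones and TUBB6. Of all 15701 genes, 7.55% had such a range with teratoma 3 highest, and of the isotypes 5, all neuronal. In the other direction, with teratoma 3 lowest, the share of all genes was 11.8%, and of the isotypes 1, TUBB6. Without teratoma 3, a range of at least 1 was left for 0 of the 10 isotypes and for 2.48% of all genes, so each of the 6 counts rests on that library.

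In single ranges, TUBB4A spanned 2.01, TUBB2A 1.66, TUBB2B 1.61, TUBB3 1.48 and TUBA1A 1.42. These were wider than the ranges of 97.4%, 94.3%, 93.7%, 91.6% and 90.6% of the 15701 genes. The ubiquitous TUBB6 spanned 1.11, TUBB4B 0.69, TUBA1C 0.60, TUBA1B 0.45 and TUBB 0.32, and TUBB was wider than only 35.0% of genes. The median range was 1.61 for the neuronal isotypes, 0.60 for the ubiquitous isotypes and 0.45 for all genes. The most abundant ubiquitous isotypes, TUBB and TUBA1B, thus varied no more than the median gene.

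The direction of the spread was summarised as teratoma 3 minus the mean of teratomas 1 and 2, in log2(RPKM + 1). It was 1.67 for TUBB4A, 1.46 for TUBB2A, 1.44 for TUBB2B, 1.37 for TUBB3 and 1.36 for TUBA1A, a narrow band. It was 0.55 for TUBA1C, 0.40 for TUBA1B and 0.24 for TUBB, and −0.59 for TUBB4B and −0.98 for TUBB6. The median over all 15701 genes was −0.05. Teratoma 3 was the highest library for 39.9% of all genes whatever their range, and for 8 of the 10 isotypes. It was the lowest for 48.1% of all genes and for 2 of the isotypes, TUBB4B and TUBB6. Between teratomas 1 and 2 the median absolute difference was 0.36 for the neuronal isotypes, 0.15 for the ubiquitous ones and 0.15 for all genes. By their median the neuronal isotypes thus differed more than all genes there as well, though less than teratoma 3 did from the other libraries. TUBA1A was the exception, its difference of 0.13 being below the median of all genes.

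**Figure D2:**
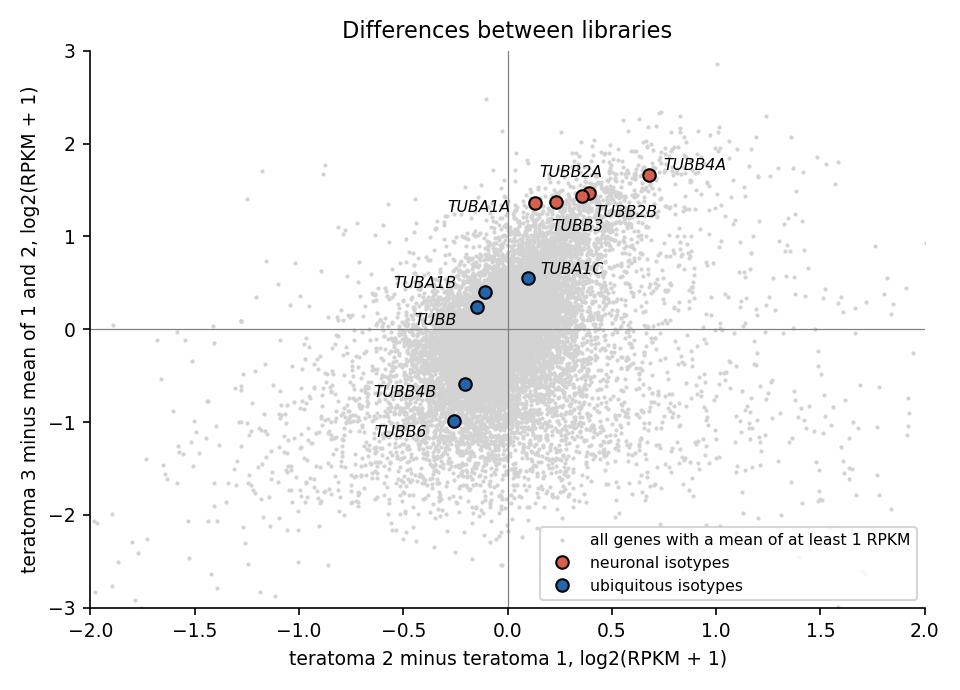
Each point is a gene averaging at least 1 RPKM, placed by teratoma 2 minus teratoma 1 and by teratoma 3 minus the mean of the other libraries, both in log2(RPKM + 1), with neuronal isotypes in red and ubiquitous isotypes in blue; 59 of the 15701 genes lie beyond the axes. The 5 neuronal isotypes lie together between 1.36 and 1.67 on the vertical axis, while the ubiquitous isotypes run from −0.98 to 0.55.

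The isotype make-up of the tubulin transcripts differed more between the libraries than the balance of alpha to beta did. Summed alpha RPKM was 2019.8, 2076 and 4045 in teratomas 1, 2 and 3, and summed beta RPKM 2394, 2585 and 4845. Both sums were thus about double in teratoma 3, by 2.00 and 2.02 times its lowest library. Alpha over beta was 0.844, 0.803 and 0.835, a log2 difference of −0.27 ± 0.04. The alpha sum was below the beta sum in all 3 libraries. The evenness of this ratio depends on the entries used: with all transcript entries of a gene summed, the log2 difference was −0.60 ± 0.24.

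Within the alpha family, TUBA1A made up 49.7%, 53.0% and 66.6% of the summed RPKM in teratomas 1, 2 and 3, a mean of 56.5% ± 8.97. TUBA1B made up 38.2%, 34.4% and 24.2%, and TUBA1C 12.1%, 12.6% and 9.15%. The neuronal isotype matched the 2 ubiquitous ones together in teratoma 1, at a ratio of 0.989, and was 2.00 times their sum in teratoma 3. The mean log2 difference was 0.39 ± 0.54, and without teratoma 3 it was 0.08.

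Within the beta family, the 4 neuronal isotypes together made up 51.0%, 59.5% and 76.3%, a mean of 62.3% ± 12.9. TUBB3 made up 18.2%, 19.7% and 25.1%, TUBB2B 17.3%, 20.5% and 26.2%, and TUBB2A 14.0%, 17.0% and 21.9%. TUBB4A was a minor isotype throughout, at 1.5%, 2.25% and 3.04%. Each of the 4 neuronal shares was lowest in teratoma 1 and highest in teratoma 3. TUBB held the largest share of any beta isotype in teratomas 1 and 2, at 35.5% and 29.7%, but in teratoma 3, at 19.7%, it came after TUBB2B, TUBB3 and TUBB2A. TUBB4B went from 11.9% and 9.57% to 3.63%, and TUBB6 from 1.63% and 1.25% to 0.360%.

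The sum of the 3 ubiquitous beta isotypes changed little, at 1173, 1046 and 1149 RPKM, a mean of 1123 ± 67.4. The sum of the 4 neuronal ones was 1220.4, 1538 and 3696 RPKM. The ratio of neuronal to ubiquitous beta was accordingly 1.04, 1.47 and 3.22, a log2 difference of 0.77 ± 0.83, and the neuronal sum was above the ubiquitous sum in 3 of 3 libraries. Without teratoma 3 the mean log2 difference was 0.31. This sign depends on where TUBB2A is placed: with TUBB2A counted among the ubiquitous isotypes the mean log2 difference was −0.32. It also turned, to −0.79, when all transcript entries of a gene were summed. TUBB has 7 entries and TUBB6 has 8, more than any neuronal isotype, and summing counts a read again in each entry that holds it.

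**Figure D3:**
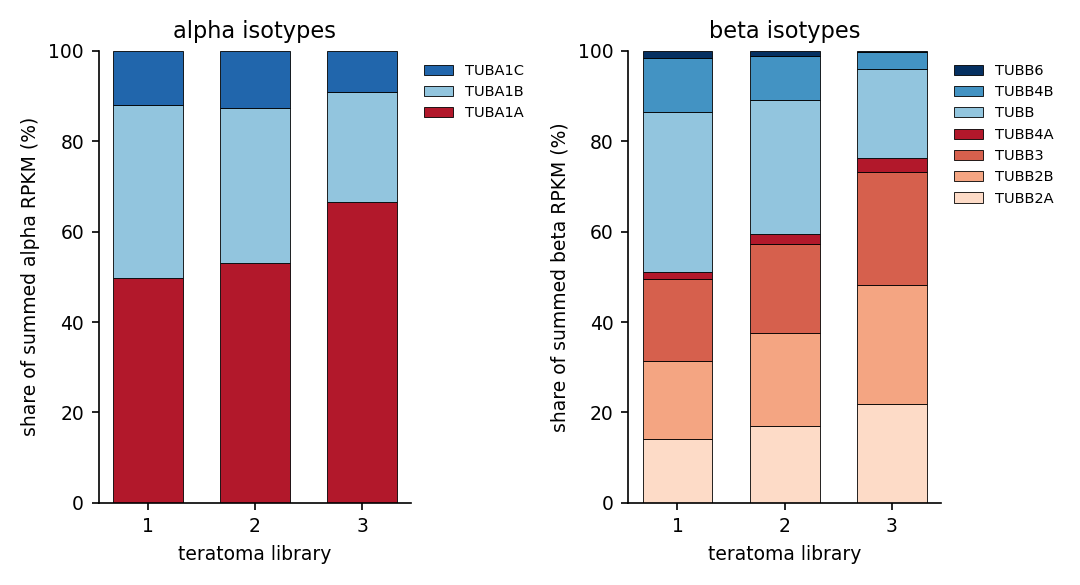
Stacked bars of the share of each isotype in the summed RPKM of its family, alpha on the left and beta on the right, for the 3 teratoma libraries; reds are neuronal and blues ubiquitous isotypes. The neuronal part of the beta bar runs from 51.0% in teratoma 1 to 76.3% in teratoma 3, and TUBA1A from 49.7% to 66.6% of the alpha bar.

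A pair of isotypes was compared directly within each library in both families, as a difference of log2(RPKM + 1). TUBB3 minus TUBB was −0.97, −0.59 and 0.35 in teratomas 1, 2 and 3, a mean of −0.40 ± 0.68. TUBB was the higher in 2 of 3 libraries and TUBB3 in teratoma 3, and the exact two-sided sign-flip permutation test gave p = 0.5. TUBA1A minus TUBA1B was 0.38, 0.62 and 1.46, a mean of 0.82 ± 0.57. TUBA1A was the higher in 3 of 3 libraries, with p = 0.25 by the same exact permutation test. With 3 libraries 0.25 is the smallest p this test can give, so neither comparison could reach significance, and both p-values were 0.5 after Benjamini-Hochberg adjustment over the 2 pairs. The sizes depend on the entries and libraries used, and summing entries counts a read again in each entry that holds it. With all entries summed, TUBB3 minus TUBB was −2.09, with TUBB the higher in 3 of 3 libraries (p = 0.25, same exact permutation test), and TUBA1A minus TUBA1B was 2.28. Without teratoma 3 the differences were −0.78 and 0.50.

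Other alpha and beta tubulin genes contributed little. Of 9 further genes, 3 had a mean of at least 1 RPKM and 5 stayed under 1 RPKM in every library. TUBA4A, an alpha tubulin abundant in muscle and brain, stood at 3.89, 4.72 and 2.05 RPKM in teratomas 1, 2 and 3. TUBA8 stood at 1.14, 2.52 and 1.86, and TUBB1, the beta tubulin of platelets, at 0.891, 0.849 and 1.83. The 9 genes summed to 8.24, 10.3 and 6.69 RPKM, less than any single one of the 10 isotypes described above. Of the 3 genes averaging at least 1 RPKM, 0 had a range of at least 1.

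Gamma, delta and epsilon tubulins, the ring complex and genes that fold tubulin had narrower ranges than the neuronal isotypes. The gamma tubulin ring complex seeds new microtubules at centrosomes. Listed together with delta and epsilon tubulin it made up 13 genes, and 0 of the 13 had a range of at least 1. Their median difference of teratoma 3 from the mean of the other libraries was −0.03 in log2(RPKM + 1). The largest range was that of TUBD1, delta tubulin, at 3.44, 2.78 and 1.46 RPKM in teratomas 1, 2 and 3. The ring complex subunit TUBGCP4, at 9.14, 9.70 and 14.1 RPKM, was instead highest in teratoma 3. The small ring complex proteins MZT2A and MZT2B were the most abundant of the list, at 98.6, 82.6 and 78.6 RPKM and at 130.4, 105.1 and 89.6 RPKM.

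The tubulin folding list held 20 genes, the tubulin cofactors, prefoldin and the CCT chaperonin, through which new alpha and beta chains pass. None of the 20 had a range of at least 1, and their median difference was 0.11. Their summed level was 736, 698 and 762 RPKM in teratomas 1, 2 and 3, while the summed level of the 10 isotypes was 4414, 4660.3 and 8890 RPKM. The chaperonin subunit CCT7 stood at 87.7, 81.8 and 80.5 RPKM and the prefoldin subunit PFDN5 at 102.6, 82.3 and 74.2. The widest ranges were those of the prefoldin subunits VBP1, at 22.8, 28.1 and 40.4 RPKM, and PFDN2, at 31.9, 30.7 and 46.5 RPKM.

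Of 26 listed enzymes that modify tubulin, 23 were found by symbol and 15 had a mean of at least 1 RPKM. A range of at least 1 was seen in 2 of the 15, with teratoma 3 highest for both, beside 20.0% of all genes with such a range and 7.55% with teratoma 3 highest. ATAT1, which acetylates alpha tubulin inside the microtubule, stood at 27.5, 34.9 and 85.8 RPKM in teratomas 1, 2 and 3, a range of 1.61. AGTPBP1, which shortens glutamate chains on tubulin tails, stood at 6.92, 8.58 and 16.8 RPKM, a range of 1.17. Teratoma 3 was clear of the other libraries for both genes. A related deglutamylase, AGBL5, was nearly level at 24.7, 23.5 and 21.2 RPKM.

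Proteins that bind microtubules divided much as the isotypes did. All 14 listed neuronal microtubule proteins had a range of at least 1 with teratoma 3 highest, and their median difference was 1.60. MAPT, the axonal protein tau, stood at 31.0, 59.4 and 192.8 RPKM in teratomas 1, 2 and 3, and MAP2, its dendritic relative, at 32.0, 56.8 and 143.3 RPKM. DPYSL3 and STMN2, regulators of axon growth, were the most abundant of the list, at 151.4, 197.6 and 443.4 RPKM and at 103.0, 137.1 and 439.6 RPKM. Of the 14 ubiquitous ones, 2 had such a range, MAPRE2 and CLASP2, with teratoma 3 highest for both, a share near that of all genes. MAPRE2, a protein of growing plus ends, stood at 20.0, 22.1 and 51.2 RPKM, and CLASP2, which stabilises plus ends, at 12.6, 17.1 and 43.0 RPKM. The ubiquitous MAP4 was nearly level, at 42.5, 45.6 and 50.7 RPKM. STMN1, the most abundant of the ubiquitous list, stood at 317.5, 293.3 and 513.4 RPKM, lowest in teratoma 2.

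**Figure D4:**
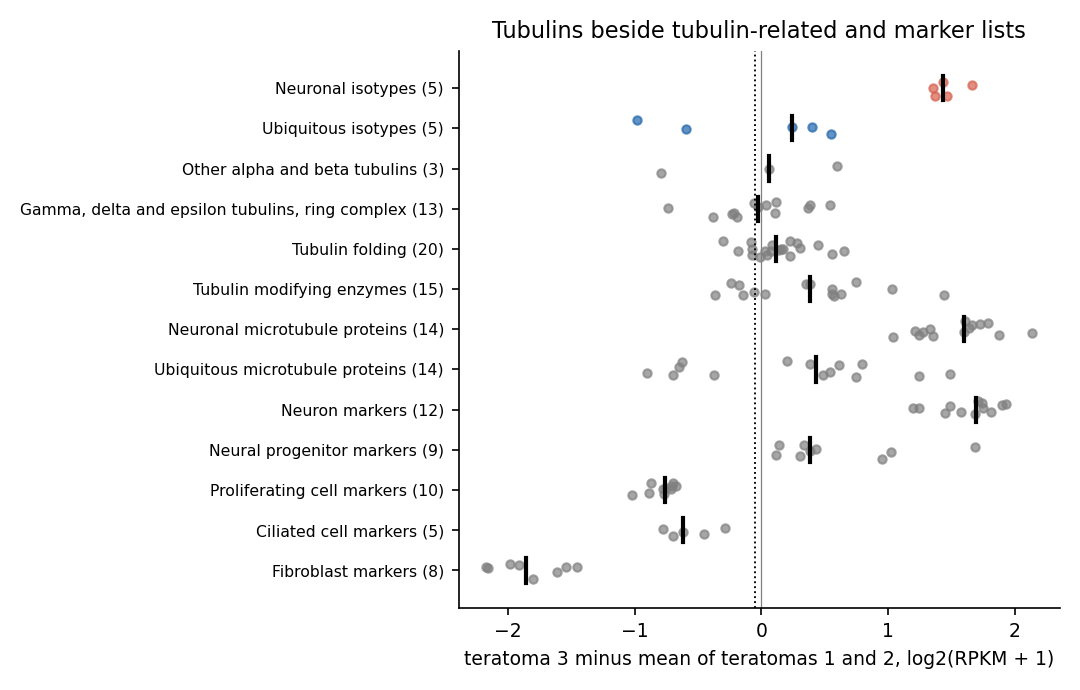
Teratoma 3 minus the mean of teratomas 1 and 2 in log2(RPKM + 1) for each isotype and for genes of the lists shown. Listed genes average at least 1 RPKM, and their number is in brackets. A bar marks each list's median and a dotted line the median of all genes, −0.05. Not drawn are the astrocyte (median 1.04), pluripotency (−0.19), oligodendrocyte (−0.25), endothelial (−1.46), endoderm (−1.80) and platelet lists. The neuronal isotypes, at a median of 1.44, lie in the band of the neuronal microtubule proteins (1.60) and the neuron markers (1.70), and the ubiquitous isotypes spread around 0.24.

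Markers of the cell types that could supply these transcripts moved between the libraries as well. All 12 neuron markers had a range of at least 1 with teratoma 3 highest, and their summed level was 356, 480.2 and 1343 RPKM in teratomas 1, 2 and 3. Each of the 5 neuronal isotypes had the same order of libraries as this sum, and so did the ubiquitous TUBA1C. The share of all genes with that order was not counted, but teratoma 3 was the highest library for 39.9% of all genes whatever their range. INA, a neuronal intermediate filament protein, stood at 85.0, 126.7 and 341 RPKM, GAP43, a growth cone protein, at 66.2, 68.1 and 254 RPKM, and SNAP25, a synaptic fusion protein, at 9.04, 15.3 and 42.0 RPKM. NEFL, the light neurofilament chain, stood at 26.4, 43.5 and 132.4 RPKM. The part of neuron content in the isotype differences was not tested.

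Set against the neuron marker sum in the same library, the neuronal isotypes differed less between libraries than in RPKM. The sum itself rose from 356 RPKM in teratoma 1 to 1343 RPKM in teratoma 3. Dividing by it flattens any gene that rises with it and makes a level gene fall, so these ratios are no separate evidence. TUBB3 was 1.22, 1.06 and 0.905 times that sum in teratomas 1, 2 and 3, and TUBB4A 0.101, 0.121 and 0.110 times. TUBA1A was 2.82, 2.29 and 2.01 times, TUBB2B 1.16, 1.10 and 0.946 times, and TUBB2A 0.943, 0.917 and 0.791 times. Teratoma 3 had the lowest ratio for 4 of the 5, TUBB4A being the exception. The ubiquitous TUBB, at 2.385, 1.60 and 0.711 times the sum, and TUBB4B, at 0.800, 0.515 and 0.131 times, differed more between libraries than any neuronal isotype.

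The 9 neural progenitor markers differed less, with 3 at a range of at least 1 and sums of 352, 364 and 523 RPKM. SOX2 and NES, which mark neural stem cells, stood at 86.8, 87.1 and 107.4 RPKM and at 94.0, 87.8 and 98.4 RPKM. FABP7 of radial glia, at 34.3, 48.8 and 134.2 RPKM, and PAX6, at 4.22, 9.21 and 13.8 RPKM, had the widest ranges. For TUBB4A, which oligodendrocytes also make, the sum of the 8 oligodendrocyte markers was 91.9, 65.1 and 60.8 RPKM, lowest in teratoma 3 where TUBB4A was highest. The myelin genes MOG and MAG were under 1 RPKM in each library.

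Several marker lists were lowest in teratoma 3, as TUBB4B and TUBB6 were. All 8 fibroblast markers had a range of at least 1 with teratoma 3 lowest, summing to 1933, 1587 and 428 RPKM in teratomas 1, 2 and 3. COL1A1, a fibrillar collagen chain, stood at 698.8, 475.4 and 128.0 RPKM. The 10 proliferation markers summed to 313.6, 260.8 and 160.5 RPKM, and all 10 were lowest in teratoma 3. A range of at least 1 was seen in 2 of the 10, TYMS and RRM2, near the 11.8% of all genes with such a range and teratoma 3 lowest. TYMS, a nucleotide synthesis enzyme, stood at 57.7, 43.3 and 24.0 RPKM. Of 9 ciliated cell markers, 5 had a mean of at least 1 RPKM and 0 of those a range of at least 1. Teratoma 3 was the lowest library for all 5, while the highest was teratoma 2 for 3 of them and teratoma 1 for the other two. The most abundant was FOXJ1, the regulator of motile cilia, at 26.1, 25.1 and 16.3 RPKM. All 8 endoderm markers were lowest in teratoma 3 too, with sums of 1035, 3411 and 334 RPKM. Of the listed genes averaging at least 1 RPKM, a range of at least 1 was seen in 4 of 4 astrocyte markers, 3 with teratoma 3 highest, in 4 of 4 endothelial markers, all with teratoma 3 lowest, and in 2 of 5 pluripotency markers. The 5 platelet markers, of interest for TUBB1, were under 1 RPKM throughout. The part of any of these cell types in the isotype levels was not tested.

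Genes with the most similar pattern were sought among the 9957 genes averaging 5 RPKM or more, by the root mean square distance between profiles of log2(RPKM + 1) centred on the gene's mean. With 3 libraries as the only points, many genes lie close by. Nearest to TUBB3 were C16orf92 at 0.0123, GNG3 at 0.0131, LY6H at 0.0134, RTN3 at 0.0147 and RUNDC3A at 0.0165. Nearest to TUBA1A were PCSK1N at 0.00316, ASTN1 at 0.0131, SEC61A2 at 0.0199, TSPAN7 at 0.0205 and FGF14 at 0.0209. Nearest to TUBB were FTSJ1 at 0.00126, IP6K2 at 0.00378, YY1AP1 at 0.00424, NME7 at 0.00484 and DRAP1 at 0.00578. Of the other isotypes, TUBA1A ranked 26 in likeness to TUBB3, TUBB2B 61, TUBB2A 96 and TUBB4A 597. TUBA1C ranked 1319 in likeness to TUBB3, TUBA1B 2014, TUBB 2848, TUBB4B 8152 and TUBB6 9013. By this measure all 4 other neuronal isotypes were nearer to TUBB3 than any of the 5 ubiquitous ones.

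The start regions of the genes were read from the RefSeq promoter table, build GRCh38.p14, which gives 250 bases before and 50 after a start site and lists 16 such regions for the 10 genes. TUBB3 and TUBB4B are printed because their levels ran in opposite directions across the libraries. Capitals mark 3 motifs, found on either strand: CCAAT, known as the site of the NF-Y factor, then TATAA, the core of the box that positions the start site, and finally GGGCGG, known as the site of SP1.
TUBB3, chr16:89923092-89923391, plus strand: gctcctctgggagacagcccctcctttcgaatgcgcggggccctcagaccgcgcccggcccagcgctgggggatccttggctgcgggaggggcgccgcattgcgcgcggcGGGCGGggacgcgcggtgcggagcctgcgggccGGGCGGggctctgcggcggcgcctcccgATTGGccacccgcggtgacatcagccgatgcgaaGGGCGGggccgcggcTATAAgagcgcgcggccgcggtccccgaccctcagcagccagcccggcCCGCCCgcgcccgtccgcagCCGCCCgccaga
TUBB4B, chr9:137241037-137241336, plus strand: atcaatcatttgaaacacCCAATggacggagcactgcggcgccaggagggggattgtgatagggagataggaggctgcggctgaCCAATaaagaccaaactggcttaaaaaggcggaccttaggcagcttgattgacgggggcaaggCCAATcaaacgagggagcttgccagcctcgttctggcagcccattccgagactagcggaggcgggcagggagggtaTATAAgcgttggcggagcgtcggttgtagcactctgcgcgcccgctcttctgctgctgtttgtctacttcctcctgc

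This region of TUBB3 held CCAAT 1 time, TATAA 1 time and GGGCGG 5 times. TUBB3 has 2 listed regions, and the one not printed held each of these motifs 0 times. The region of TUBB4B held CCAAT 3 times, TATAA 1 time and GGGCGG 0 times. CCAAT was found in 10 of the 16 regions (62.5%), against 34.6% of all 35116 regions in the table. GGGCGG was found in 10 of 16 (62.5%), against 45.0%, and TATAA in 4 of 16 (25%), against 20.4%. The letters CAGCTG, which basic helix-loop-helix factors of neurogenesis can bind, were found in 1 of 16 (6.25%), a region of TUBB4A, against 17.9%. The neuronal and ubiquitous isotypes held the first 3 motifs equally often: CCAAT and GGGCGG in at least 1 region of 4 neuronal and 4 ubiquitous genes each, and TATAA in 2 and 2. The 16 regions are few, 2 of those of TUBA1C overlap, and a match of letters shows no binding.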

How the data were processed

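RNA-seq of 3 H1 teratoma libraries (1 group) was used. Per the submitters' processing notes the authors used Bowtie2 and hg19, and the Bowtie2 version, counting tool, filters, strand setting and removal of host mouse reads were not given in the sources used here. Overlapping and antisense genes therefore cannot be told apart, and the part of mouse reads was not tested. RPKM, reads per kilobase of a RefSeq entry per 1000000 reads, was computed by the authors, with 1 total per library. The deposited counts are raw reads per entry, 59443 entries in all, and a read can count for several entries. The other deposited columns, entry length and apparent number of genome placements, described entries only.

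For each symbol the entry with the highest mean RPKM was kept, which left 33002916 to 34327415 reads per library. Comparisons used log2(RPKM + 1), a scale that understates differences of low genes. Intervals on reads are exact Poisson at 95% and cover counting error only. Since there is 1 group, no model of group differences was fitted. The 2 within-library differences were tested by exact sign-flip permutation. The members and the 17 gene lists were chosen with earlier results of these data known. Named were all members, in each list the 2 genes with the highest mean and the 2 with the largest range, and the 5 nearest profiles to TUBB3, TUBA1A and TUBB. MOG, MAG and TUBB1 were named after their values were seen. Alternatives were the pseudocount, the filter, the range, rescaling, median-of-ratios scaling, the entries used, the class of TUBB2A and each library left out. The range statistic was tested on simulated counts. Coding sequences came from GENCODE v29 and promoters from RefSeq, and the coding ends of the alpha isotypes are not reported here. Python 3.11.15, numpy 2.4.6, pandas 2.3.3, scipy 1.17.1, matplotlib 3.10.9 and Biopython 1.88 were used.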

Additional observations from a re-analysis of the deposited data

How the results depend on the processing

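With 3 libraries the exact permutation test used cannot give a p below 0.25. The 6 isotypes with a range of at least 1 became 0 to 6 when each library was left out (0 without teratoma 3, 5 without teratoma 1), and a range of at least 2 left 1, TUBB4A. The 3142 genes with such a range became 403 to 2714 with each library left out (403 without teratoma 3), 4873 after rescaling to 1000000 per library, 416 at a range of at least 2, and 1923 at a mean of at least 5 RPKM. The mean log2 difference of neuronal and ubiquitous beta isotypes, 0.77, became −0.79 with all entries summed and −0.32 with TUBB2A among the ubiquitous isotypes. That of alpha and beta, −0.27, became −0.60 ± 0.24 with all entries summed, which also moved TUBB3 minus TUBB from −0.40 to −2.09 and TUBA1A minus TUBA1B from 0.82 to 2.28. Summing counts a read again in each entry that holds it, and TUBB has 7 entries, TUBA1A 3 and TUBA1B 1. With entries summed the mean of TUBB was 5345 RPKM instead of 857 and that of TUBA1A 4410 instead of 1600. The mean of TUBA1B stayed at 822 RPKM. Beyond how each setting is built, the cause was not tested. Rescaling moved the median gene by 1.75, 1.80 and 1.86 in log2 in teratomas 1, 2 and 3, and median-of-ratios scaling by −0.04, 0.00 and 0.04. Under both scalings each isotype kept its highest and its lowest library, and 6 isotypes had a range of at least 1. Of all alternatives for summary results, 42 were classed as unchanged, 8 as moved and 2 as reversed. Unchanged meant within 1.5 times for a count and within 1 SD for a log2 difference of sums. The 2 pairs of isotypes only had to keep their sign, so their shifts with all entries summed are among the 42. For levels of single isotypes, 53 alternatives stayed within 1 SD and 17 moved further, all with entries summed or values rescaled.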
